A study of Homo sapiens with 6 samples.

Results

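The genes described here encode the chains of the collagens and the laminins, the 2 protein families that make up much of the extracellular matrix. They were taken as all genes whose only annotated symbol reads COL, a number, A and a number, or LAMA, LAMB or LAMC and a digit. The rule found 53 genes among 18417 measured, 43 collagen chains and 10 laminin chains. H441 cells, a line grown from a human lung adenocarcinoma, received either a Dharmacon SMARTpool, a mixture of siRNAs, against the transcription factor gene ETS2 or a scrambled control pool, both with a lipid reagent. Total RNA was isolated 48 h later and read on an Affymetrix human gene array. There are 3 arrays after ETS2 siRNA and 3 after control siRNA. Every array comes from a separate transfection of the 1 line, so the p-values measure the spread between transfections. All cells carry the line's own alterations and were transfected, so no untreated cells enter the comparison, and 1 ETS2 reagent was set against 1 control reagent.

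Collagens are trimers whose chains wind into a triple helix. Fibrillar collagens give tissue its tensile strength, collagen IV forms the sheet of the basement membrane, and others decorate fibrils, span the cell membrane or anchor the epithelium. Laminins are crosses of 1 alpha, 1 beta and 1 gamma chain that epithelial cells lay down beneath themselves. The cells then bind them through integrins and dystroglycan. In the lung, the epithelium rests on a basement membrane rich in laminins and collagen IV, while fibroblasts make most of the fibrillar collagen. COL1A1, a chain of collagen I and a marker of cells that make it, was read at 9.09, 9.06 and 8.99 after ETS2 siRNA. In control cells COL1A1 was read at 8.93, 8.98 and 8.94. Levels are the deposited values on the log2 scale, and differences are ETS2 siRNA minus control. Probes differ in how brightly they bind, so levels of different genes are not ranked.

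Of the 53 genes, only LAMC1 passed the test, and it rose. LAMC1 encodes a gamma chain that most laminins of adult epithelia contain. Its level was 11.70, 11.70 and 11.75 after ETS2 siRNA, against 11.25, 11.36 and 11.27 in control cells. Every ETS2 siRNA array lay above every control array. The difference was 0.42 on the log2 scale, or 134% of the control level (SE 0.0438, 95% interval 0.32 to 0.52, adjusted p = 0.00234 by limma). Of all genes, 4.91% passed the test, 2.28% higher and 2.63% lower. The members' count of 1 of 53 is 1.89%, with 0 lower. With any single array left out, the difference of LAMC1 ran from 0.40 to 0.46 and its adjusted p by limma from 0.00414 to 0.0222. It passed in all 16 alternative settings.

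ETS2 itself fell to 8.87, 8.70 and 8.78 after ETS2 siRNA, against 9.79, 9.91 and 9.79 in control cells, which leaves 48.4% of its control level. RMA gives the arrays like distributions, and the medians over all probes lay between 7.32 and 7.36. In RNA from whole cultures, fewer cells making a transcript and less of it per cell cannot be told apart. Background was judged from 341 olfactory receptor genes, which lung cells are not known to use, and 95% of them had mean levels below 6.67, the floor used here. At least 1 group mean was above it for 31 of the 53 genes (58.5%), against 70.8% of all genes. The line's identity was checked on epithelial markers, and 10 of 10 measured were above the floor, among them EPCAM, CDH1, KRT8 and NKX2-1. The mean level of these 10 ran from 12.33 to 12.34 after ETS2 siRNA and from 12.39 to 12.42 in control cells, without overlap. SFTPB, a surfactant protein gene, and SLC34A2, a phosphate transporter of alveolar cells, fell by 0.36 and 0.29 on the log2 scale (adjusted p = 0.00770 and 0.0120 by limma). NAPSA and NKX2-1 were lower without overlap but did not pass. KRT19, CDH1 and KRT7 were higher without overlap and did not pass either. Of the 10, 2 passed (20%, against 4.91% of all genes). The groups did not overlap for 4 with ETS2 siRNA lower (40%, against 11.5% of all genes) and 3 with it higher (30%, against 11.6%). Of 9 fibroblast markers, 4 were above the floor (LUM, S100A4, ACTA2 and PDGFRB), while DCN, PDGFRA, POSTN, THY1 and FAP were below. Across arrays, the mean level of the fibroblast list ran from 6.33 to 6.38 after ETS2 siRNA and from 6.26 to 6.38 in control cells. Of these 9, only ACTA2, a smooth muscle actin, passed the test, with a difference of 0.23 (adjusted p = 0.0337 by limma). That is 11.1% of the list, against 4.91% of all genes. Differences were positive for 4 of the 9 and negative for 5, with a median of -0.02. Endothelial markers were above the floor for 2 of 6 measured (KDR and ESAM) and leukocyte markers for 1 of 4 (CD14). The part of these shifts in the collagen and laminin values was not tested.

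The stretches just upstream of the laminin genes that the results turn on are shown because ETS factors bind a core of GGAA, marked here in capitals on either strand (GGAA or TTCC). They are RefSeq sequences of GRCh38.p14, 5′ to 3′ on the strand of the gene, and cover the 250 bases before the first listed start. LAMC1 is the gene that rose (chr1:183023170-183023419, plus strand), LAMA5 (chr20:62367313-62367562, minus strand) and LAMB1 (chr7:108003162-108003411, minus strand) encode chains that join it in 1 laminin, and LAMB3 (chr1:209652426-209652675, minus strand) came next to passing. The last is the stretch between the starts of COL4A1 and COL4A2, which point away from each other (chr13:110307158-110307283, plus strand).
LAMC1: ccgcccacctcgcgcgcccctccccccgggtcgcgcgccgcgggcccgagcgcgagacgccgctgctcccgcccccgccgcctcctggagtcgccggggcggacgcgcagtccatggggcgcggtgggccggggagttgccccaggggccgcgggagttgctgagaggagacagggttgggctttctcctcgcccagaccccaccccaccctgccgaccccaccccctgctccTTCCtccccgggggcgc
LAMA5: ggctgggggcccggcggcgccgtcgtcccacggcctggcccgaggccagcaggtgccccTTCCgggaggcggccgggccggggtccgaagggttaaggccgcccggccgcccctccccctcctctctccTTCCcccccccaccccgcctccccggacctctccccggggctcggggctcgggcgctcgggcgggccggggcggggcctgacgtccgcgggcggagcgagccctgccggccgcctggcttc
LAMB1: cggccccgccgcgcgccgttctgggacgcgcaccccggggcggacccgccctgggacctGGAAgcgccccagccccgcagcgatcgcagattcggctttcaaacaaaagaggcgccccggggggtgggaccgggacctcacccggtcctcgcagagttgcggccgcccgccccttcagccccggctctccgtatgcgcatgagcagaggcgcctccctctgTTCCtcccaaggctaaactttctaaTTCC
LAMB3: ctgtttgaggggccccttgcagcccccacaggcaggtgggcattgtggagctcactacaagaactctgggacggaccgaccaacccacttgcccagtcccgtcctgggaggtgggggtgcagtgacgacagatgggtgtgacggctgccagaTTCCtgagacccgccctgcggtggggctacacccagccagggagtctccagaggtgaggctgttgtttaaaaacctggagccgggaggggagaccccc
COL4A1 to COL4A2: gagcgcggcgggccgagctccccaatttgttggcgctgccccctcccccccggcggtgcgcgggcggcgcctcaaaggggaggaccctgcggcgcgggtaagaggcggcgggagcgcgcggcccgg

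LAMC1 held 1 core, LAMA5 held 2, LAMB1 held 3 and LAMB3 held 1, and the collagen IV stretch of 126 bases held 0. Promoters were found for 39 of the 53 genes. At least 1 GGAA on either strand was present in 35 of the 39 (89.7%), against 92.8% of 27305 promoters of the same length. The longer forms CGGAAG or AGGAAG, which overlap the core, were present in 16 of the 39 (41.0%), against 41.0% of all. LAMC1 and LAMA5 each held 1 of these upstream. In the 50 bases after the start, LAMC1 held 1 more, while LAMA5, LAMB1 and LAMB3 held 0. LAMB3 has 3 listed starts, and only the first was searched. CCGGAAGT, the form with the widest flanks searched, was in 0 of the 39, against 3.64% of all. These counts describe letters in the windows and not binding.

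**Figure D1:**
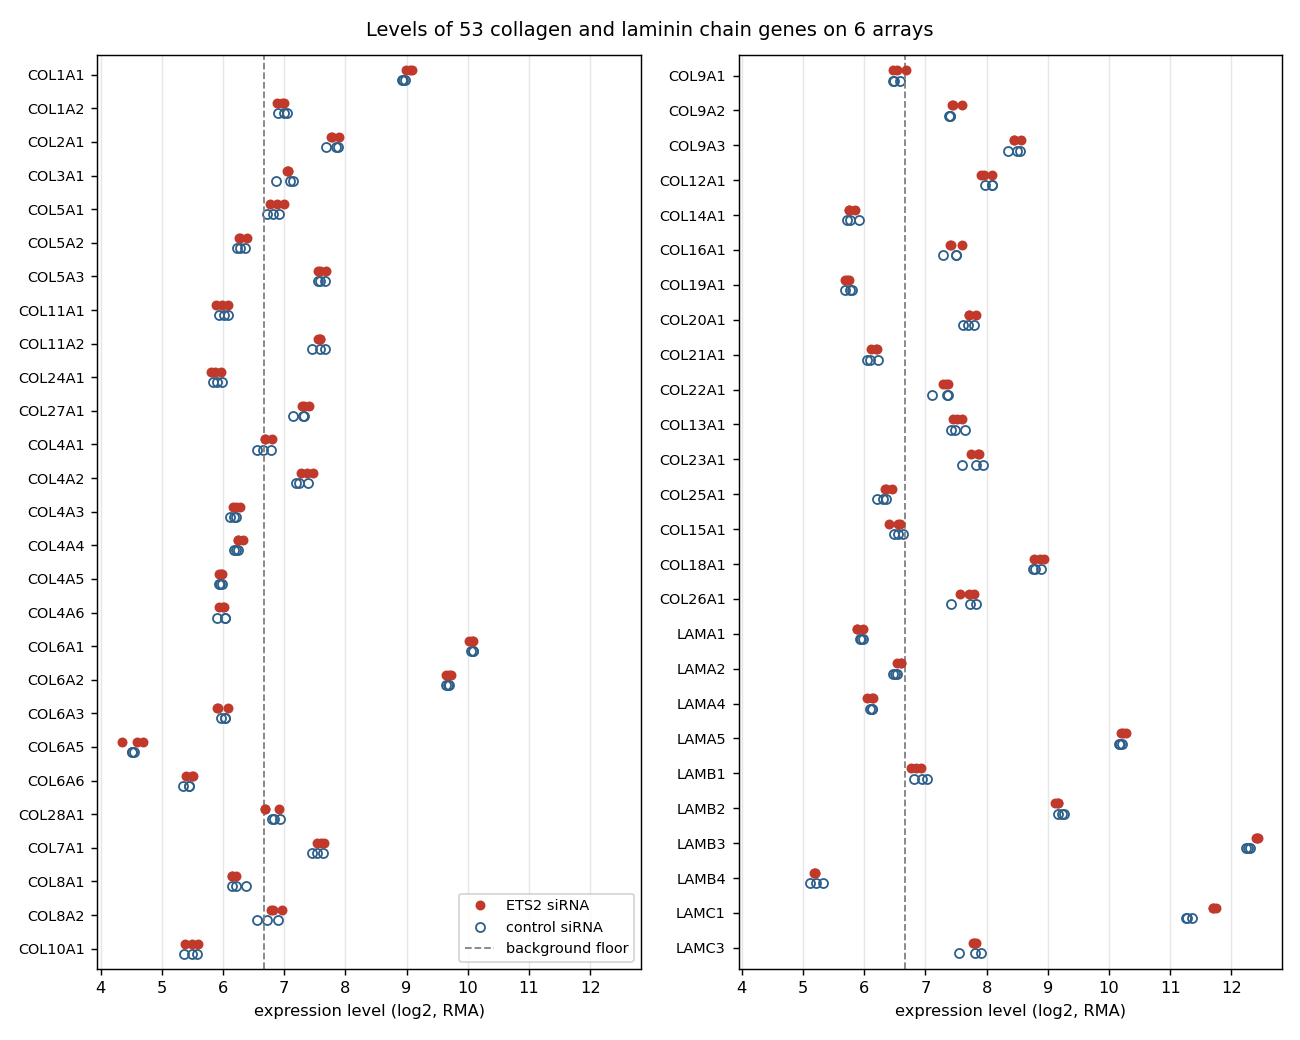
Levels of the 53 genes (log2, RMA; 1 row a gene) on the 3 ETS2 siRNA arrays (filled) and the 3 control siRNA arrays (open), with the background floor at 6.67 as a dashed line. LAMC1 shows a gap between the groups, and 22 genes have both group means below the floor.

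LAMB3, the beta chain of the laminin that fixes hemidesmosomes, came closest of the genes that did not pass. It was read at 12.41, 12.40 and 12.43 after ETS2 siRNA, against 12.27, 12.30 and 12.24 in control cells. The groups did not overlap. The difference was 0.14 (SE 0.0375, 95% interval 0.06 to 0.23, adjusted p = 0.0758 by limma). LAMB3 passed in 4 of the 16 alternative settings, with an adjusted p by limma between 0.00107 and 0.228 over all of them. It passed when dim genes were left out by either filter, when the spread was allowed to follow brightness and when arrays were weighted.

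LAMC1 joins LAMA5, an alpha chain of mature epithelial basement membranes, and LAMB1, a widely used beta chain, in 1 laminin. LAMA5 was read at 10.28, 10.23 and 10.20 after ETS2 siRNA, against 10.16, 10.18 and 10.21 in control cells. LAMB1 was read at 6.93, 6.76 and 6.84 after ETS2 siRNA, against 7.03, 6.95 and 6.82 in control cells. For both genes the groups overlapped, with differences of 0.05 (95% interval -0.04 to 0.15, adjusted p = 0.564 by limma) for LAMA5 and -0.09 (95% interval -0.24 to 0.06, adjusted p = 0.548 by limma) for LAMB1. LAMB2, a beta chain that can replace LAMB1, was read at 9.16, 9.11 and 9.16 after ETS2 siRNA, against 9.17, 9.27 and 9.23 in control cells. Its groups did not overlap, the ETS2 siRNA arrays being lower, but its difference of -0.08 did not pass (95% interval -0.18 to 0.02, adjusted p = 0.377 by limma). LAMC3, the other gamma chain measured, was read at 7.83, 7.78 and 7.80 after ETS2 siRNA, against 7.81, 7.55 and 7.90 in control cells. Its difference was 0.05 (adjusted p = 0.827 by limma) and the groups overlapped.

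The changes within an array were set against each other for 4 pairs. LAMC1 minus LAMB1 changed by 0.51, LAMC1 minus LAMB2 by 0.50, LAMC1 minus LAMA5 by 0.37 and LAMC1 minus LAMC3 by 0.37. In each pair the 3 ETS2 siRNA arrays were above the 3 control arrays. All 4 pairs contain LAMC1, which had passed the test, so these values describe its rise against each partner and are given with no test. The other 4 laminin chains measured, 3 alpha chains and LAMB4, lay below the floor in both groups, with differences from -0.03 to 0.07 and groups that overlapped.

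**Figure D2:**
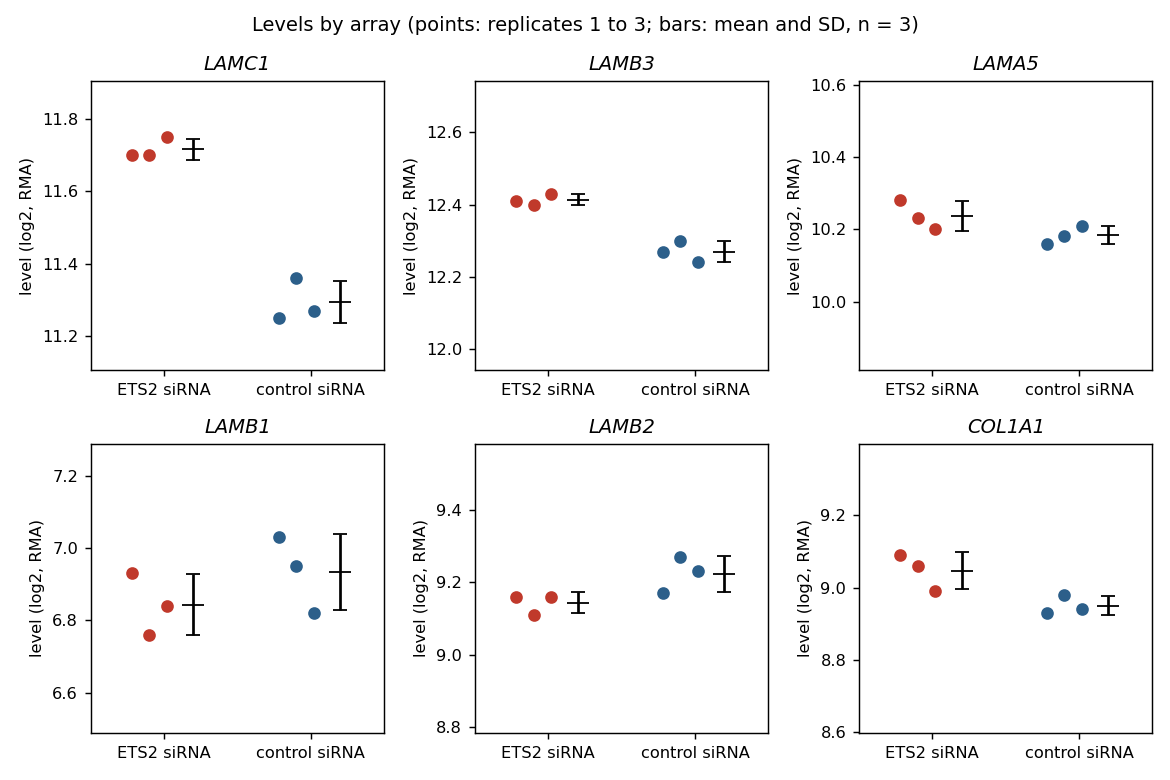
Levels of 5 laminin chain genes and COL1A1 by array (log2, RMA), with points for replicates and bars for mean and SD (n = 3). Each panel spans 0.8 log2 units. LAMC1, LAMB3 and COL1A1 show ETS2 siRNA arrays above control arrays, LAMB2 shows them below, and LAMA5 and LAMB1 overlap.

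Of the 43 collagen chains, 0 passed the test by limma, 0 had an unadjusted p under 0.05, and their differences ran from -0.09 to 0.13. Among the 11 fibrillar collagen genes, 8 were above the floor. COL1A1 had a difference of 0.10 (SE 0.0420, 95% interval -7.47e-06 to 0.19, adjusted p = 0.270 by limma) with groups that did not overlap. Its partner in collagen I, COL1A2, was read at 7.00, 6.97 and 6.89 after ETS2 siRNA, against 7.00, 6.90 and 7.04 in control cells. The groups of COL1A2 overlapped, with a difference of -0.03 (adjusted p = 0.858 by limma). COL3A1, which forms fibrils with collagen I, stood at 7.06 ± 0.02 after ETS2 siRNA and 7.04 ± 0.15 in control cells (SD, n = 3). Of the cartilage collagens, the mean level of COL2A1 was 7.81 after ETS2 siRNA and 7.80 in control cells (difference 0.01), and that of COL11A2 was 7.58 after ETS2 siRNA and 7.57 in control cells (difference 0.01). Collagen V chains join collagen I fibrils, and the mean level of COL5A1 was 6.88 after ETS2 siRNA and 6.82 in control cells (difference 0.06), and that of COL5A3 was 7.61 after ETS2 siRNA and 7.60 in control cells (difference 0.01). The mean level of COL27A1 was 7.34 after ETS2 siRNA and 7.26 in control cells (difference 0.08). COL11A2 had 3 probes, of which 2 hold identical values. The brightest read 0.01 and the others -0.02.

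Collagen IV genes lie in head-to-head pairs, with 126 bases between the starts of COL4A1 and COL4A2, 418 between COL4A3 and COL4A4, and 379 between COL4A5 and COL4A6. COL4A1 was read at 6.80, 6.68 and 6.68 after ETS2 siRNA, against 6.79, 6.56 and 6.66 in control cells. COL4A2 was read at 7.47, 7.28 and 7.37 after ETS2 siRNA, against 7.39, 7.19 and 7.25 in control cells. In both genes replicate 1 was the highest of its group in either condition, and the groups overlapped. The differences were 0.05 for COL4A1 and 0.10 for COL4A2 (adjusted p = 0.770 and 0.526 by limma). The other 4 collagen IV genes lay below the floor, COL4A3 and COL4A4 with differences of 0.05 and 0.06, and COL4A5 and COL4A6 with 0.00 and -0.01.

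The chains of collagen VI, which forms beaded filaments beside basement membranes, showed small differences. COL6A1 was read at 10.09, 10.07 and 10.02 after ETS2 siRNA, against 10.09, 10.09 and 10.05 in control cells. COL6A2 was read at 9.72, 9.69 and 9.65 after ETS2 siRNA, against 9.68, 9.69 and 9.65 in control cells. Their differences of -0.02 (95% interval -0.11 to 0.07) and 0.01 (95% interval -0.08 to 0.10) did not pass (adjusted p = 0.889 and 0.915 by limma). COL6A3, the third chain of the classical trimer, was below the floor, at 5.97 ± 0.10 after ETS2 siRNA and 6.01 ± 0.04 in control cells (SD, n = 3). COL6A5 and COL6A6 were also below it, with differences of 0.02 and 0.05. COL28A1, a related collagen, was at 6.76 after ETS2 siRNA and 6.85 in control cells, a difference of -0.09.

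COL7A1 forms the fibrils that anchor epithelium to the tissue beneath, and stood at 7.60 ± 0.06 after ETS2 siRNA and 7.54 ± 0.09 in control cells (SD, n = 3). COL18A1, a basement membrane collagen from which endostatin is cut, stood at 8.86 ± 0.08 after ETS2 siRNA and 8.81 ± 0.07 in control cells (SD, n = 3). COL9A2, a chain of a collagen that coats cartilage fibrils, was read at 7.60, 7.45 and 7.44 after ETS2 siRNA, against 7.40, 7.38 and 7.40 in control cells. The groups of COL9A2 did not overlap, and the difference of 0.10 did not pass (adjusted p = 0.334 by limma). Other fibril-associated chains above the floor had overlapping groups. The mean level of COL9A3 was 8.49 after ETS2 siRNA and 8.46 in control cells (difference 0.02), that of COL12A1 was 7.98 after ETS2 siRNA and 8.05 in control cells (difference -0.07) and that of COL16A1 was 7.47 after ETS2 siRNA and 7.43 in control cells (difference 0.04). That of COL20A1 was 7.75 after ETS2 siRNA and 7.70 in control cells (difference 0.05) and that of COL22A1 was 7.33 after ETS2 siRNA and 7.28 in control cells (difference 0.05). Of the chains that span the membrane, the mean level of COL13A1 was 7.52 after ETS2 siRNA and 7.52 in control cells (difference 0.00) and that of COL23A1 was 7.83 after ETS2 siRNA and 7.79 in control cells (difference 0.04). For COL8A2, a network-forming chain, and COL26A1, the groups overlapped too. The mean level of COL8A2 was 6.85 after ETS2 siRNA and 6.73 in control cells (difference 0.13) and that of COL26A1 was 7.69 after ETS2 siRNA and 7.66 in control cells (difference 0.04). The remaining 11 collagen chains below the floor had differences from -0.08 to 0.09.

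**Figure D3:**
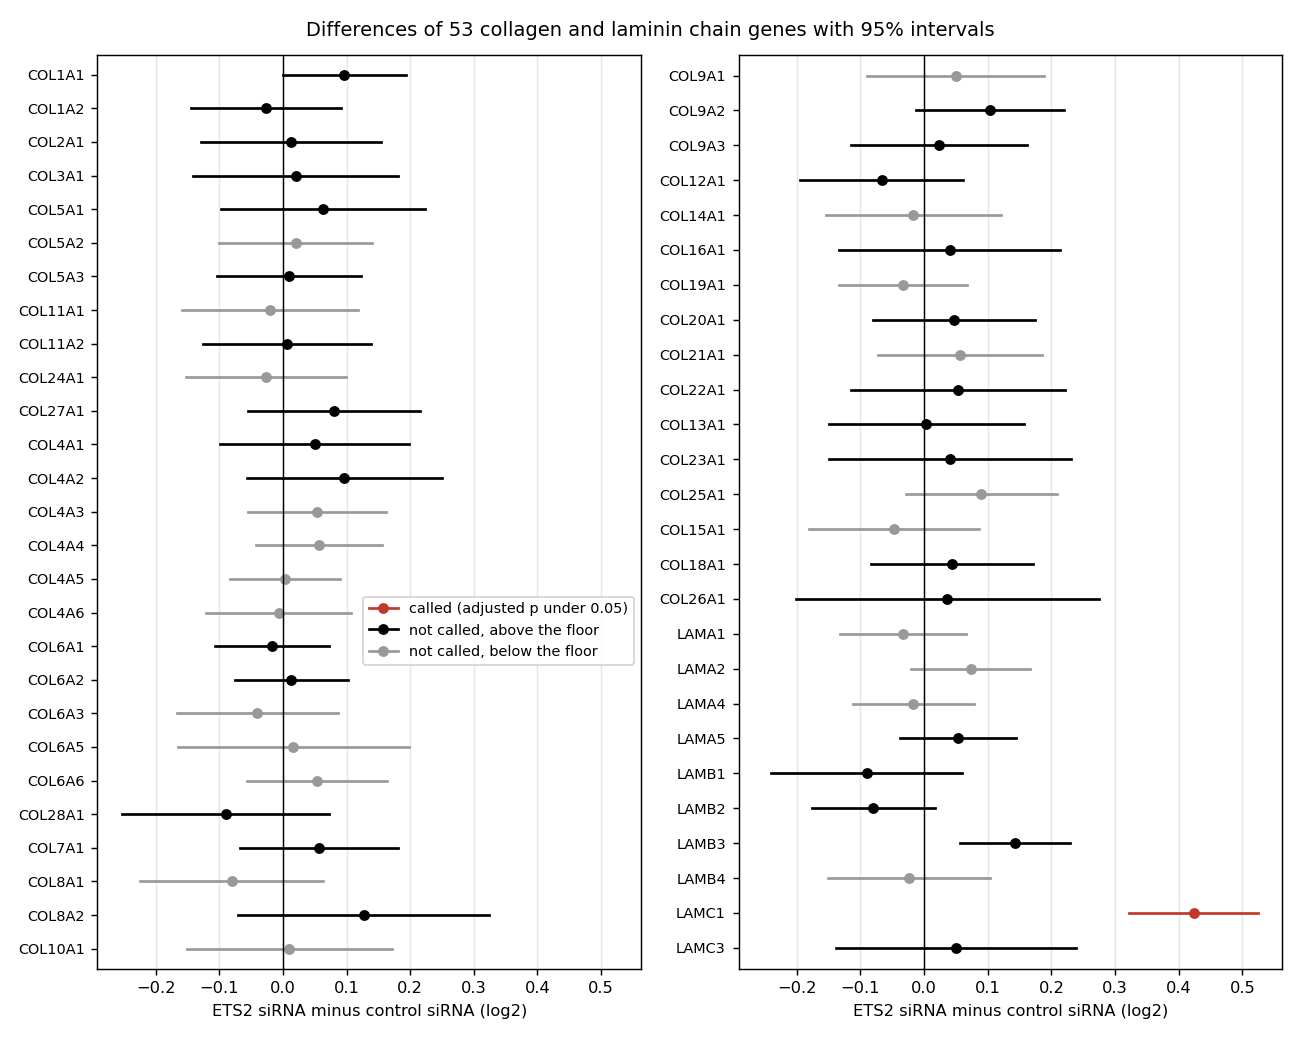
ETS2 siRNA minus control differences of the 53 genes (log2) with 95% intervals from limma, in red where called and in grey where both group means are below the floor. LAMC1 stands at 0.42, and the other genes lie between -0.09 and 0.14.

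For the 52 genes that did not pass, the 95% interval of the measured difference lay inside 1.5-fold in all 52 and inside 1.25-fold in 51. The exception was COL8A2, whose interval ran from -0.07 to 0.32. Of the 52, 22 lay below the floor, where RMA compresses differences. For these 22 a narrow interval does not bound the change of the transcript. Dim genes just above the floor share this limit, such as COL4A1 (means of 6.72 after ETS2 siRNA and 6.67 in control cells) and LAMB1 (6.84 and 6.93). Among all genes that did not pass, 95% had intervals inside 1.25-fold and 99.9% inside 1.5-fold. An unadjusted p under 0.05 was reached by 2 of the 53 genes (3.77%), LAMC1 and LAMB3, against 18.5% of all genes. Counting only genes above the floor, the share was 6.45% of 31 chains, against 23.4% of all such genes. The groups did not overlap, with ETS2 siRNA higher, for 4 of the 53 (7.55%; LAMC1, LAMB3, COL1A1 and COL9A2), against 11.6% of all genes. They did not overlap, with ETS2 siRNA lower, for LAMB2, 1 of 53 (1.89%), against 11.5% of all genes. Above the floor these shares were 12.9% higher and 3.23% lower for the chains. For all genes above the floor they were 14.7% and 14.5%. The median difference of the 53 genes was 0.02, against 0.00 over all genes, and 36 of the 53 had positive differences (67.9%), against 50.8% of all genes.

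The sign of that median changed when single arrays were left out or weighted. In control replicate 2 the median deviation of the 53 genes from their means over the 6 arrays was -0.07, and in ETS2 siRNA replicate 1 it was 0.07. In the other 4 arrays it lay between -0.01 and 0.02. Over all genes the medians of the 6 arrays lay between -0.0033 and 0.0083. Control replicate 2 was the lowest array of its group for 33 of the 53 genes, a larger share than the 33.6% of all genes. ETS2 siRNA replicate 1 was the lowest of its group for 3 of the 53, a smaller share than the 30.5% of all genes. Without control replicate 2 the median difference was -0.01, and without ETS2 siRNA replicate 1 it was -0.0033. With array weights it was -0.01. The count of members called was 1 higher and 0 lower with either left out.

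**Figure D4:**
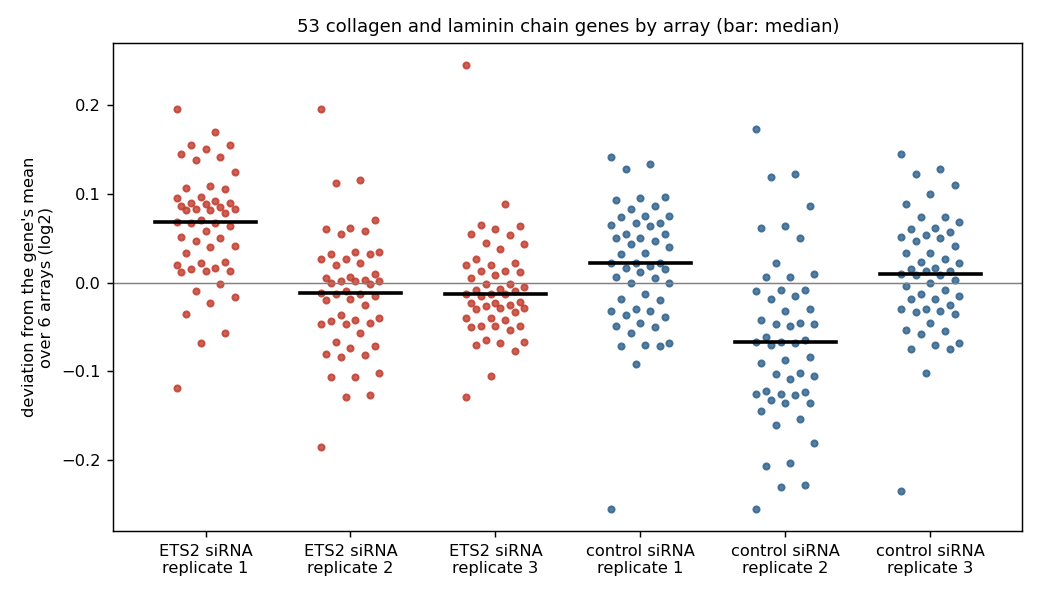
Deviation of each of the 53 genes from its mean over the 6 arrays (log2), by array, with the median as a bar. The medians stand at 0.07 in ETS2 siRNA replicate 1 and -0.07 in control siRNA replicate 2, and closer to 0 in the other arrays.

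Among genes that serve these proteins, 16 measured receptors of collagens and laminins included 2 that rose and 0 that fell (12.5%, against 4.91% of all genes). ITGA6, an alpha subunit of some integrins that bind laminins, was read at 8.84, 8.84 and 8.98 after ETS2 siRNA, against 8.51, 8.63 and 8.39 in control cells. It rose by 0.38 (SE 0.0682, adjusted p = 0.0204 by limma). ITGB1, the beta subunit shared by most matrix-binding integrins, was read at 11.23, 11.33 and 11.31 after ETS2 siRNA, against 11.14, 11.02 and 11.05 in control cells. It rose by 0.22 (SE 0.0482, adjusted p = 0.0414 by limma). In 7 of the 16 receptors (43.8%, against 11.6% of all genes) every ETS2 siRNA array lay above every control array, and in 0 (against 11.5%) below. Of these 7, the other 5 (ITGA2, ITGB4, DDR1, ITGA3 and CD151) did not pass. This list and those below were chosen with earlier results of these data known. Their shares describe the lists and are not tests. The median of the list was 0.04. The call of ITGB1 was lost with any single array left out (adjusted p up to 0.156 by limma), and that of ITGA6 was lost without any array but control replicate 2 (up to 0.0908). Both calls were also lost when the replicate numbers were added to the fit.

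Collagen synthesis and crosslinking genes numbered 33, of which 0 rose and 2 fell (6.06% called, against 4.91% of all genes), a share near that of all genes. Their median was 0.02. The groups did not overlap for 6 with ETS2 siRNA higher (18.2%, against 11.6% of all genes) and 3 with it lower (9.09%, against 11.5%). PLOD3, a lysyl hydroxylase that also glycosylates collagen, was read at 10.79, 10.71 and 10.71 after ETS2 siRNA, against 11.00, 11.04 and 11.00 in control cells. It fell by 0.28 (SE 0.0407, adjusted p = 0.0100 by limma). PCOLCE, an enhancer of procollagen C-proteinase, was read at 9.0, 8.95 and 8.92 after ETS2 siRNA, against 9.14, 9.20 and 9.15 in control cells. It fell by 0.21 (SE 0.0407, adjusted p = 0.0283 by limma). The call of PLOD3 was lost without ETS2 siRNA replicate 2 or 3 (up to 0.0597), and that of PCOLCE with any array left out (up to 0.125). The call of PCOLCE was also lost when the replicate numbers were added to the fit.

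Of 17 basement membrane partners, 1 rose and 0 fell (5.88% called, against 4.91% of all genes), again near the share of all genes, with a median of 0.01. The groups did not overlap for 3 with ETS2 siRNA higher (17.6%, against 11.6% of all genes) and 0 with it lower (against 11.5%). The gene called was TNC, the matrix glycoprotein tenascin-C, at 10.45, 10.50 and 10.48 after ETS2 siRNA, against 10.19, 10.31 and 10.27 in control cells. It rose by 0.22 (SE 0.0440, adjusted p = 0.0301 by limma), and the call was lost without any array but control replicate 2 (up to 0.122). Of 19 proteases and inhibitors that act on these chains, 0 rose and 1 fell (5.26% called, against 4.91% of all genes), also near the share of all genes, with a median of 0.01. The groups did not overlap for 4 with ETS2 siRNA higher (21.1%, against 11.6% of all genes) and 3 with it lower (15.8%, against 11.5%). The gene called was MMP13, a collagenase, at 8.33, 8.14 and 8.28 after ETS2 siRNA, against 8.55, 8.53 and 8.57 in control cells. It fell by 0.30 (SE 0.0536, adjusted p = 0.0196 by limma). The call held without ETS2 siRNA replicate 1 or control replicate 2 and was lost without any of the other 4 arrays (up to 0.0762).

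**Figure D5:**
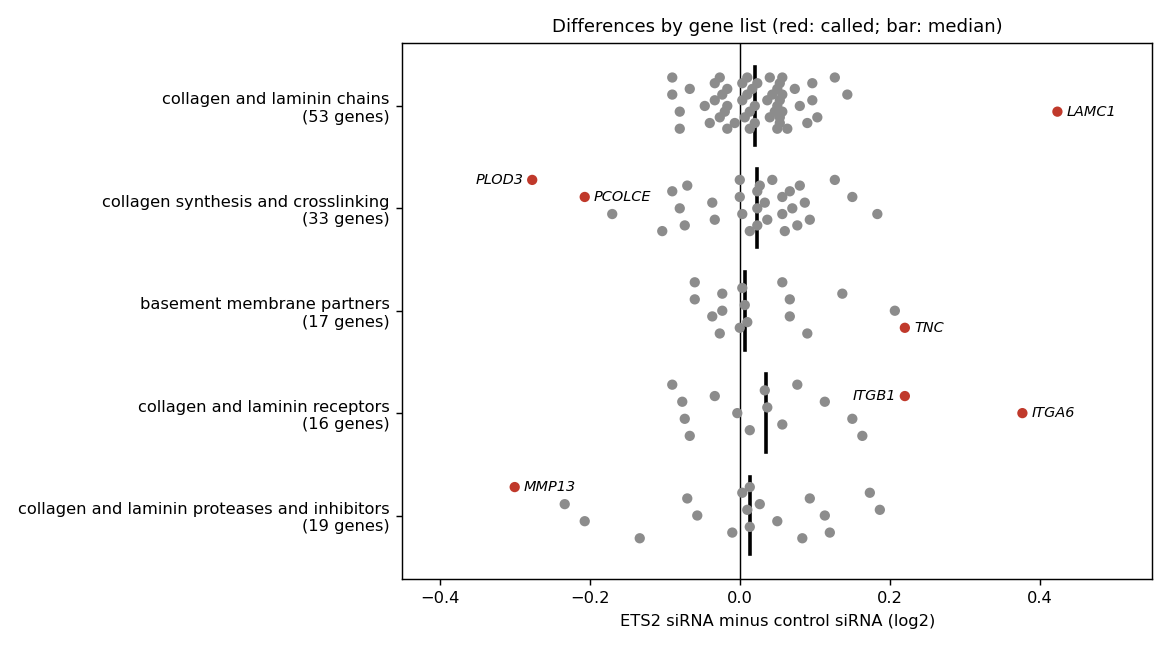
ETS2 siRNA minus control differences (log2) of the 53 collagen and laminin chain genes and of 4 lists of genes that serve them, 1 point a gene, with genes called in red and the median as a bar. LAMC1, ITGA6, ITGB1 and TNC lie above 0 and PLOD3, PCOLCE and MMP13 below, while the medians lie between 0.01 and 0.04.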

How the data were processed

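RNA of 6 arrays was labelled with biotin and hybridised to an Affymetrix human gene array. The authors deposited log2 levels made with RMA, per the submitters' processing notes. The sources used here do not name its version, the annotation or the genome build. RMA removes a shift shared by all genes and compresses differences of dim ones. Precision is limited by having 3 arrays a group.

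Of 33297 probes, 19460 carried 1 gene symbol, 1754 several and 12083 were unnamed here. RefSeq gene records (GRCh38.p14) matched 19429 by gene identifier and changed 0 symbols. The probe with the highest mean stood for each of 18417 genes. For the differences, limma 3.58.1 (lmFit, eBayes; R 4.3.3) took all 6 arrays. Two-sided p-values were adjusted by Benjamini-Hochberg over the 18417 genes, and genes were called at an adjusted p under 0.05. The fit was tested on simulated data. The 16 alternatives comprised a replicate block, 3 rescalings, 2 filters on low levels, averaging of probes, 2 variance models, array weights and leaving out each of 6 arrays.

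Named are the called chains, those above the floor, the 3 nearest to passing, the 3 dimmest, those with several probes, partners in a trimer or a head-to-head pair, and called members of the other lists. Cell type markers were named beside them after their values were seen. The genes and lists were chosen with earlier results of these data known.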

Additional observations from a re-analysis of the deposited data

How the results depend on the processing

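LAMC1 and ETS2 kept their direction and their call in all 16 alternatives. The number of genes called, 904, became 1963 with an intensity trend in the variance, 1963 with genes above the median level only, 1397 with genes above the floor only and 1480 with array weights, and ran from 213 to 735 with 1 array left out. In these 4 settings LAMB3 was called too, which gives 2 chains higher in place of 1. With array weights, 4 receptors, 2 basement membrane partners, 1 synthesis gene and 3 proteases or inhibitors were higher and 2 proteases or inhibitors lower. With genes above the median level only, these counts were 4, 2, 1, 2 and 2. With the intensity trend they were 4, 2, 0, 2 and 2, and with genes above the floor only 4, 2, 0, 0 and 2. Synthesis genes lower numbered 3 in place of 2 with the intensity trend and with genes above the median level only. Centring on the median or quantile normalising again gave 1 protease or inhibitor higher and 2 lower. Quantile normalising again also gave 3 receptors higher in place of 2. Centring on 57 ribosomal protein genes left 1 synthesis gene lower. With 1 array left out, receptors higher, partners higher, synthesis genes lower and proteases or inhibitors lower each ran from 0 to 1.

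The replicate block gave 604 genes in all, 0 receptors higher, 1 synthesis gene lower and an adjusted p by limma of 0.0153 for LAMC1, 0.0630 for ITGA6, 0.0939 for ITGB1 and 0.0649 for PCOLCE. Same-numbered arrays of the 2 groups correlated at 0.18, 0.18 and 0.04 in their deviations from the group means. Arrays with different numbers correlated between -0.20 and 0.07. ETS2 siRNA replicate 3 correlated about as much with control replicate 2 (0.04) as with its own number. These values do not settle whether the numbers pair the arrays. The main fit took the arrays as unpaired.

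Of 39 chains named, 20 that were not called changed sign in at least 1 alternative, each with a main difference of at most 0.06 in size. With array weights the values were -0.0164 for COL11A2, -0.0175 for COL13A1, -0.0249 for COL16A1, -0.0214 for COL6A5, -0.00158 for COL22A1, -0.00744 for COL23A1, -0.0600 for COL26A1, -0.0299 for COL2A1, -0.0273 for COL5A3, -0.0288 for LAMC3, -0.0400 for COL3A1, -0.00765 for COL5A1 and -0.0137 for COL9A3. COL4A6 read 0.00234 when centred on ribosomal protein genes and 0.00333 when median-centred, and COL11A2 read -0.0111 as a mean over probes. With 1 array left out the ranges were -0.0533 to 0.0567 for COL11A2, -0.0467 to 0.0683 for COL13A1, -0.03 to 0.075 for COL16A1, -0.0667 to 0.005 for COL1A2, -0.035 to 0.1 for COL22A1, -0.0533 to 0.117 for COL23A1, -0.0817 to 0.118 for COL26A1 and -0.0467 to 0.0533 for COL2A1. They were -0.065 to 0.075 for COL3A1, -0.005 to 0.11 for COL4A1, -0.00667 to 0.0183 for COL4A5, -0.0517 to 0.0183 for COL4A6, -0.0283 to 0.0383 for COL5A3, -0.0317 to 0.00333 for COL6A1, -0.00333 to 0.0317 for COL6A2, -0.0567 to 0.113 for COL6A5, -0.0333 to 0.0667 for COL9A3, -0.075 to 0.03 for LAMB4 and -0.0517 to 0.123 for LAMC3. The causes of these changes were not tested.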

Other observations

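One further probe carried the symbol COL1A2 together with PNLIP, a pancreatic lipase gene, and was left out of the 53 genes. It was read at 4.71, 4.51 and 4.57 after ETS2 siRNA, against 4.56, 4.51 and 4.55 in control cells, below the floor of 6.67 in both groups. Its difference of 0.06 was smaller than the SD of the ETS2 siRNA arrays, 0.10 (n = 3), and did not pass among all probes (adjusted p = 0.764 by limma).

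Matrix genes outside the chains that did not pass included the perlecan gene HSPG2, a proteoglycan of basement membranes, at 10.43, 10.44 and 10.40 after ETS2 siRNA, against 10.29, 10.30 and 10.27 in control cells (difference 0.14, adjusted p = 0.0806 by limma). FN1, the fibronectin gene, was read at 12.56, 12.60 and 12.54 after ETS2 siRNA, against 12.60, 12.61 and 12.57 in control cells. HSPG2 and FN1 were chosen for mention after their values were seen.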
